A study of Homo sapiens with 6 samples.

Results

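The OAS family and the proteins that sense double-stranded RNA (dsRNA) were described in the acute myeloid leukaemia line FUJIOKA, of human origin, with and without silencing of SPINK2. The 9 genes are OAS1, OAS2, OAS3, OASL, EIF2AK2, IFIH1, DHX58, ADAR and ZBP1, of 63236 genes in the deposited table. They were chosen from measured values of this same comparison, because OAS3 was lower after silencing while most interferon-stimulated genes were higher, so their differences between groups are given as a description with no test. RNA was sequenced in 3 libraries with a scrambled control shRNA (shNEG) and in 3 libraries with a shRNA against SPINK2 (shSPINK2). Both groups were FUJIOKA cells stably transduced with a lentiviral Tet-pLKO-puro vector whose shRNA is switched on by doxycycline. The labels describe 2 SPINK2 shRNAs and the methods 1, and neither says which of them a library carries, how long cells received doxycycline before RNA was taken, or whether replicates were separate cultures. The spread between libraries may therefore be technical.

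The deposited table gives 1 mean per gene over all 6 libraries, and the reads of single libraries were recovered from it as whole numbers. The recovery also used the fold change and standard error that the authors deposited, so a group ratio given here is tied to the authors' fold change and is not independent of it. Values are normalized reads, which are whole reads divided by the size factor of the library. Recovered libraries have a group and no replicate number, and were named A, B and C within each group. Recovered reads, without the 267 genes that could not be resolved, summed to between 28052811 and 28861558 per library, and size factors lay between 0.985 and 1.03. No molecular identifiers are described, so that reads are not independent molecules. SPINK2, the gene targeted, had 55.8, 63.0 and 53.1 normalized reads in libraries A, B and C of shNEG and 6.78, 8.92 and 6.09 in those of shSPINK2, with no overlap. Of 12 markers of myeloid blasts 10 had a mean of at least 50 and KIT was under 1, and their sum was 52512 to 53803 in shNEG and 57667 to 60261 in shSPINK2, without CEBPA and MYB, whose reads were not resolved. Of 12 markers of other cells 8 had a mean under 1, and their sum was 256 to 265 in shNEG and 295 to 306 in shSPINK2. Within this sum PECAM1 was higher in shSPINK2 (46.3 and 151) and COL1A1 lower (180 and 118). The paper counts PECAM1 among genes tied to myeloid maturation, so it may not mark other cells here. The part of either marker set in the results was not tested. In bulk RNA, fewer cells expressing a gene and less of its RNA per cell cannot be told apart.

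Long dsRNA is uncommon in healthy cytoplasm and accumulates during viral infection. The OAS enzymes bind it and make 2-5A, a short chain of adenosines joined by unusual bonds that acts as a second messenger. Protein kinase R, encoded by EIF2AK2, binds dsRNA and stops translation, MDA5 (IFIH1) signals from it through MAVS to induce interferon, and ADAR edits adenosine to inosine in it so that self RNA is less readily sensed. Most of these genes are themselves interferon-stimulated, through promoter elements bound by STAT and IRF factors.

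OAS3 encodes the largest of the OAS enzymes, which prefers long dsRNA. It had 5675, 5464 and 5414 normalized reads in shNEG libraries A, B and C, and 2957, 2465 and 2895 in the shSPINK2 libraries. All shSPINK2 libraries lay below all shNEG libraries, and the nearest pair of libraries differed 1.83-fold. The group means were 5518 ± 138 (SD, n = 3) and 2772 ± 268 (SD, n = 3), a log2 ratio of -0.99 that stayed between -1.04 and -0.92 when each library was left out. OAS3 was 49.8% lower in shSPINK2.

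OAS1 encodes the small OAS enzyme. It had 514, 454 and 483 normalized reads in shNEG and 907, 692 and 771 in shSPINK2, so that the groups did not overlap. The mean was 1.64-fold higher in shSPINK2, a log2 ratio of 0.71 (0.60 to 0.80 on leaving out each library). OAS2, the medium-sized enzyme, had 137, 107 and 143 normalized reads in shNEG and 357, 236 and 286 in shSPINK2. Its groups did not overlap either, and its mean was 2.27-fold higher, a log2 ratio of 1.18 (1.02 to 1.32). OASL is an OAS-like protein without 2-5A synthetase activity, which binds dsRNA and promotes signalling by RIG-I. It had 94.7, 75.0 and 81.1 normalized reads in shNEG and 245, 167 and 245 in shSPINK2. Again every shSPINK2 library was higher, with a mean 2.62-fold that of shNEG and a log2 ratio of 1.39 (1.3 to 1.55). OAS3 was thus the only one of the 4 family genes that was lower in shSPINK2.

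Among the helicase sensors, IFIH1 encodes MDA5, which forms filaments along long dsRNA. It had 846, 770 and 828 normalized reads in shNEG and 1335, 1353 and 1384 in shSPINK2. The groups did not overlap, and the mean was 1.67-fold higher, a log2 ratio of 0.74 (0.70 to 0.77). DHX58 encodes LGP2, a helicase without signalling domains that modulates RIG-I and MDA5. It had 190, 143 and 155 normalized reads in shNEG and 465, 372 and 510 in shSPINK2. Its ratio was the highest of the members, at 2.76-fold and a log2 ratio of 1.46 (1.36 to 1.59).

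The most abundant of the other sensors differed little between the groups. EIF2AK2 had 3504, 3303 and 3735 normalized reads in shNEG and 3634, 3672 and 3663 in shSPINK2. The shSPINK2 values lay inside the range of shNEG, and the log2 ratio was 0.06 (0.01 to 0.10). ADAR had 17673, 17102 and 17534 normalized reads in shNEG and 18197, 19015 and 18974 in shSPINK2. The groups did not overlap, yet the nearest pair of libraries differed only 1.03-fold and the mean was 7.41% higher, a log2 ratio of 0.10 (0.09 to 0.12). For ADAR 4 sets of whole reads matched the deposited values and the closest was taken, whereas the other members had 1 set each. ZBP1, a sensor of left-handed nucleic acid that can trigger necroptosis, is listed with a mean of 0 and was not described further.

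Of the 8 members with reads, all with a mean of at least 10, 6 had all shSPINK2 libraries above all shNEG libraries and 1, OAS3, had them below. Over the 15864 genes tested the groups were likewise apart in most, with shSPINK2 above in 30.5% and below in 31.7%. Since the members were chosen on this comparison, nothing is read from these counts.

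The order of the genes by level was compared per kilobase (kb) of annotated exons, merged over the transcripts of a gene. In shNEG, ADAR had the highest level with 1424 ± 24.3 normalized reads per kb (SD, n = 3). EIF2AK2 with 318 ± 19.6 and OAS3 with 306 ± 7.66 followed and overlapped each other, and IFIH1 had 156 ± 7.62. DHX58 with 42.6 ± 6.46 and OAS1 with 37.1 ± 2.30 overlapped, as did OASL with 13.2 ± 1.6 and OAS2 with 11.5 ± 1.72, all SD with n = 3. In shSPINK2 the level of OAS3 was 154 ± 14.9 per kb, below that of IFIH1 with 260 ± 4.78, and these 2 genes had exchanged ranks 3 and 4 without overlap. The order depends on the length that is used. Per kb of canonical transcript OAS3 lay above EIF2AK2 in shNEG, with means of 836 and 352, while OAS3 and IFIH1 overlapped in shSPINK2, with means of 420 and 379, so that no exchange of ranks was seen. OAS1, whose merged exons span 13021 bases and whose canonical transcript spans 1631, ranked 4 in shNEG and 2 in shSPINK2 on that scale, in place of rank 6 in both groups.

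Within the family, OAS3 held 82.5%, 84.3% and 82.7% of the summed level per kb of the 4 OAS genes in the shNEG libraries. In the shSPINK2 libraries it held 53.9%, 57.6% and 56.5%. The summed level was 359 to 381 normalized reads per kb in shNEG and 237 to 304 in shSPINK2. Without OAS3 the other 3 genes together had 56.2 to 66.6 per kb in shNEG and 101 to 140 in shSPINK2. OAS3 had the highest level of the OAS genes in all 6 libraries on this scale. Per kb of canonical transcript the mean of OAS1 in shSPINK2 was above that of OAS3, at 484 and 420. In shNEG these means were 296 and 836. The shares of OAS3 therefore depend on the length that is used.

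The 3 OAS enzymes lie side by side on chromosome 12 (GRCh38) and are transcribed in the same direction. OAS1 spans 112905856 to 112933219, OAS3 spans 112938051 to 112976460 and OAS2 spans 112978395 to 113011723, all on the plus strand. OASL lies apart from them, from 121017763 to 121039246 on the minus strand of the same chromosome. OAS3, which was lower in shSPINK2, is therefore flanked on both sides by genes that were higher, with the start of OAS1 at -32.2 kb and that of OAS2 at 40.3 kb from its own. An antisense lncRNA, ENSG00000257452, overlaps all 3 genes and had a mean of 0.50 reads. Counting is not stated to use strand, so reads of the lncRNA and of the OAS genes cannot be told apart.

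Around the cluster, 14 neighbouring genes were listed and 10 of them tested with limma. An adjusted p under 0.05 (Benjamini-Hochberg over all 15864 genes) was reached by 3 as higher and 2 as lower, where 28.5% of all genes tested passed as higher and 29.8% as lower. ERP29, a chaperone of the endoplasmic reticulum, rose (log2 difference 0.40, SE 0.04, limma adjusted p = 8.50e-11), and DDX54, an RNA helicase, fell (log2 difference -0.27, SE 0.04, limma adjusted p = 1.80e-06). HECTD4 and PTPN11, a tyrosine phosphatase, also passed as higher, with differences of 0.17 and 0.11, and NAA25 as lower, with -0.21. The call of PTPN11 ended without library A or B of shNEG or B of shSPINK2, with differences of 0.08 to 0.11. TRAFD1, RITA1, TPCN1, CFAP73 and IQCD did not pass.

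Promoters from RefSeq (GRCh38.p14, 250 bases before to 50 after the start) were searched on both strands for GAAA, any 2 bases and GAAA again, a form of the interferon-stimulated response element. Entries matched OAS1, OAS3, EIF2AK2, IFIH1 and ADAR. Distances are counted from these RefSeq starts, which differ from the gene starts given for the cluster. The sites shown for OAS1 and OAS3 therefore lie inside the gene spans given above. The element was held by 3.57% of all 35116 promoters, and by those of OAS3, EIF2AK2 and IFIH1, which differed in direction or size of difference. The promoter of OAS3 held 2 copies, 143 and 12 bases before the start, that of EIF2AK2 1 copy 6 bases before it, and that of IFIH1 1 copy 21 bases before it and 2 on the opposite strand that overlap each other. Neither OAS1 nor any of the 3 ADAR promoters held it. The form with only 1 base between both GAAA words, added after the OAS1 promoter had been seen, is held by 3.12% of all promoters and lies 17 bases before the OAS1 start, and also 148 bases before the OAS3 start, where it overlaps the longer form. The stretches nearest the start are shown with the matched letters in capitals. Those of OAS3, EIF2AK2 and IFIH1 show the element searched first, and that of OAS1 shows the shorter form added later.
OAS3, chr12:112938452-112938481, plus strand: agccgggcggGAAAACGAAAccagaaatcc
OAS1, chr12:112906935-112906964, plus strand: cccttctgagGAAACGAAAccaacagcagt
EIF2AK2, chr2:37156967-37156996, minus strand: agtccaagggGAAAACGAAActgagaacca
IFIH1, chr2:162318686-162318715, minus strand: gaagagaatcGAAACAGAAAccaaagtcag
A match is a description of letters, and no binding was measured.

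The canonical transcripts of OAS3 and ADAR share a word of 7 bases with a shRNA target. The word was chosen on these data, so its sites are given as a description of letters. Earlier work on these data singled out GCTCTCA, which lies within the shRNA2 target of SPINK2 opposite guide positions 6 to 12, counted from the guide's 5′ end. The canonical transcript of OAS3 (6599 bases) holds it 3 times, that of ADAR (6610 bases) once, and those of the other 7 members not at all. In OAS3 the word lies in the coding sequence in exon 2 (chromosome 12, 112941594 to 112941600) and exon 13 (112967445 to 112967451), and in the 3′ UTR in exon 16 (112972960 to 112972966). The ADAR word lies in the 3′ UTR (chromosome 1, 154582630 to 154582636). The target and the 4 sites are shown in the same frame of 21 bases, with the word in capitals.
shRNA2 target: cgccaaactGCTCTCAgtata
OAS3, exon 2: cggggcacaGCTCTCAagggt
OAS3, exon 13: ccaggcccaGCTCTCAagtct
OAS3, 3′ UTR: taccataaaGCTCTCAccctt
ADAR, 3′ UTR: ggaacacagGCTCTCAcaaga
The OAS3 sites share 11, 9 and 12 of the 21 bases with the target, in the order shown, and the ADAR site 11. These counts include the 7 bases of the word, which match because the sites were chosen by it. How many bases unrelated sites would share was not computed. ADAR, with its 1 word, had a log2 ratio of 0.10, and the part of these sites in any value was not tested.

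The words opposite guide positions 2 to 8, the seed of a guide, occurred in OAS1, OAS3 and OASL. That of shRNA2 occurs once in the coding sequence of OAS1. That of shRNA1 occurs once in the 3′ UTR of OAS3 and 2 times in the 3′ UTR of OASL. Both words are common. The background was 10902 protein-coding genes with an annotated 3′ UTR and a mean of at least 50. Of these, 17.9% held the shRNA1 word and 23.7% the shRNA2 word. The part of these sites in any value was not tested. The OAS3 site and the shRNA1 target are shown with this word in capitals. They share 12 of 21 bases, a count that includes the 7 bases of the word. No likeness beyond the word is read from it.
shRNA1 target: tcagggaaggtggTCATAATa
OAS3, 3′ UTR, chr12:112973086-112973092: acagatgcattcaTCATAATa

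As a background of sequence alone, the GCTCTCA word was counted in the canonical transcripts of the 10902 protein-coding genes that have an annotated 3′ UTR and reach a mean of 50. It was absent from 77.8% of them, and 3.31% held 2 copies and 0.826% held 3 or more. Of the 838 transcripts within 10% of the length of OAS3, 12 held 3 or more copies, OAS3 among them. The word was chosen on these data and OAS3 for its lower value, so nothing is read from their meeting, and the part of the word in the value of OAS3 was not tested.

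The 5 genes whose profile over the 6 libraries was nearest to that of OAS3, among 12326 with a mean of at least 50, were HELLPAR, RXFP1, PIMREG, DDX12P and PKMYT1. The measure was the Euclidean distance between log2 values centred on each gene's mean, which was 0.08 for HELLPAR and 0.12 for PKMYT1. OAS3 was chosen for its lower value, so the measure mostly finds genes that were lower by a similar amount. Their log2 ratios lay between -1.02 and -0.91. Nothing is read from what these genes do, and a link to OAS3 was not tested. HELLPAR, a long noncoding RNA, had 161 normalized reads in shNEG and 79.9 in shSPINK2, and RXFP1, the relaxin receptor, had 104 and 51.2. PIMREG, a mitotic regulator, had 1745 and 881, and PKMYT1, an inhibitory kinase of CDK1, had 2767 and 1414. DDX12P, a helicase pseudogene, had 701 and 372, and its reads may be shared with near-identical copies.

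Of 4 genes for the turnover of 2-5A and related proteins, 0 passed the limma test as higher and 2 as lower, beside 28.5% and 29.8% of all genes tested, and edgeR also called 0 as higher. With 4 genes nothing is read from these counts. PDE12, which degrades 2-5A, fell from 2565 ± 41.3 to 1807 ± 49.8 (SD, n = 3; log2 difference -0.51, SE 0.05, limma adjusted p = 1.41e-11). AKAP7, which has a 2-5A-degrading domain, fell with overlapping groups and few reads, from 108 to 85.3 (log2 difference -0.34, SE 0.14, limma adjusted p = 0.0394), a call that ended under scaling by total reads or by TMM and without library B or C of shNEG or A or C of shSPINK2, where the difference was -0.33 to -0.22. ABCE1, an ATPase of ribosome recycling, and CNP, a phosphodiesterase of the same fold, did not pass, with log2 differences of -0.01 and -0.06.

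Of the 12 genes of RIG-I-like receptor signalling 11 were tested. As higher 6 passed and as lower 3, beside 28.5% and 29.8% of all genes tested. The median log2 difference was 0.13 against 0.00 over all genes tested. RIGI, the sensor of RNA with a 5′ triphosphate, rose from 444 ± 32.6 to 706 ± 32.4 normalized reads (SD, n = 3; log2 difference 0.67, SE 0.07, limma adjusted p = 1.81e-10). MAVS, the mitochondrial adaptor of RIG-I and MDA5, rose slightly, from 7165 ± 169 to 7763 ± 239 (SD, n = 3; log2 difference 0.12, SE 0.04, limma adjusted p = 0.0164), a call that ended without library C of shNEG or of shSPINK2, with differences of 0.10 and 0.09. IKBKE, a kinase that activates IRF3 and IRF7, had the largest fall, from 3599 ± 129 to 2100 ± 99.0 (SD, n = 3; log2 difference -0.78, SE 0.05, limma adjusted p = 2.13e-16). The kinases and factors below MAVS thus differed in direction, since the related kinase TBK1 and IRF7 passed as higher, with differences of 0.13 and 0.62 (the call of TBK1 ended without library B or C of shNEG or B of shSPINK2, at 0.11, 0.14 and 0.09), whereas the ubiquitin ligase TRAF3 and IRF3 passed as lower, with -0.51 and -0.20. ZC3HAV1, an antiviral protein that binds CpG-rich RNA, and TICAM1, the adaptor of TLR3, passed as higher with 0.38 and 0.49. TLR3 itself, which senses dsRNA in endosomes, had a mean of 2.66 and was not tested. These examples beyond RIGI, MAVS and IKBKE were chosen after their values were seen. Some genes of this list, RIGI and IRF7 among them, are interferon-stimulated. Their calls, and the counts and median of the list, are therefore not independent of the choice of members and are a description only.

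Other dsRNA-binding and processing proteins showed 1 gene higher and 3 lower among 10 tested, beside 28.5% and 29.8% of all genes tested. The median log2 difference was -0.01. DICER1, which cuts dsRNA into small RNAs, rose (log2 difference 0.39, SE 0.05, limma adjusted p = 3.95e-09). ILF2, a nuclear dsRNA-binding factor subunit, fell (log2 difference -0.34, SE 0.04, limma adjusted p = 3.30e-09) by about as much as the helicase DHX9 (-0.33, SE 0.04), and which of them fell more changed with the library left out. DROSHA also passed as lower. The reads of SON were not resolved. Of the 9 partners of protein kinase R and ZBP1, 4 passed as higher and 1 as lower, beside the same shares of all genes. Their median was 0.01, and nothing is read from counts in lists this short. CASP8, the protease that holds back necroptosis, rose (log2 difference 0.40, SE 0.05, limma adjusted p = 4.75e-09), and ATF4, a transcription factor translated when eIF2 is phosphorylated, fell (log2 difference -0.20, SE 0.04, limma adjusted p = 3.73e-05).

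The genes that carry the interferon signal to these promoters were listed as well, and several of them are interferon-stimulated. Of 11 tested, 6 passed as higher and 1 as lower, beside 28.5% and 29.8% of all genes tested. The median log2 difference was 0.17. IRF9, the DNA-binding part of the ISGF3 complex, rose from 61.6 ± 13.5 to 106 ± 12.4 normalized reads (SD, n = 3; log2 difference 0.80, SE 0.15, limma adjusted p = 3.46e-05). Its partner STAT2 also passed as higher, with a difference of 0.74 (SE 0.04) within the error of that of IRF9, and was the higher of both without library C of shNEG (0.73 against 0.65). IRF9, STAT2, RIGI, IRF7 and USP18 are themselves interferon-stimulated, so their values are not independent of the choice of members. Their calls and p-values are therefore a description only, and nothing is read from the count of this list. USP18, an interferon-stimulated brake on the receptor, was the 1 gene that fell (log2 difference -0.34, SE 0.08, limma adjusted p = 2.59e-04). Among the interferons listed, IFNB1 had a mean of 0.67, and IFNL1 and IFNG were listed at 0.

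Interferon-stimulated genes were part of the reason for which the members were chosen, so 48 further ones are given as a description with no test. All shSPINK2 libraries lay above all shNEG libraries in 34 of them and below in 5, beside 30.5% and 31.7% of all genes tested. The median log2 difference was 0.40. IFIT1, which binds foreign RNA ends, had 134 normalized reads in shNEG and 395 in shSPINK2, a log2 difference of 1.57. CMPK2, a mitochondrial nucleotide kinase, had 824 and 596, a log2 difference of -0.47. The others below were GBP1, PML, TRIM5 and PARP12, with differences between -0.38 and -0.19, named after their values were seen.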

How the data were processed

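RNA of 3 shNEG and 3 shSPINK2 libraries was sequenced by the authors in paired reads of 150 bases. Per the methods, reads were aligned to GRCh38 with STAR, counted with featureCounts and compared with DESeq2. The submitters' processing notes name STAR 2.7.11, DESeq2 1.40.0 and hg38. The annotation release and strandedness are not given in the sources used here. The deposited signal is the authors' mean, over all 6 libraries, of read counts divided by DESeq2 size factors. The deposited table also holds the authors' comparison on a log2 scale (fold change, standard error, Wald statistic, p-values and a status), none of which is printed.

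The 6 size factors were read from genes with 1 read in 1 library, whose group follows from the deposited sign. Whole reads are the integers whose weighted sum is the deposited mean. For means of at least 20 they also had to match the deposited log2 fold change under a count model. The deposited standard error set the dispersion of that model and was not itself matched. At the lower of these means, genes without such a match were searched on the mean alone. This use of the authors' comparison had not been planned, and without it no member has reads per library. Group differences therefore carry the authors' fold change. Search limits were set after seeing these data, over several trial runs. In a refit of the recovered reads with DESeq2 a few single genes, no member among them, had standard errors far from those deposited. In that refit their dispersions were left unshrunken as outliers. Reads were resolved for 98.3% of the 16131 genes whose mean is at least 10. Recovery was tested on reads simulated under the same model for 500 genes already resolved. Of these, 489 were resolved again, and all 489 gave the simulated reads. The limma fit was tested on simulated reads with far fewer changed genes than were called here. Neither test shows how the steps perform on reads that depart from these settings.

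Genes with a mean of at least 10 were fitted with limma 3.58.1 (trend, two-sided, no covariates, R 4.3.3) on log2(normalized reads + 0.5), and Benjamini-Hochberg adjusted p under 0.05 counted as passed. The log2 difference of this fit understates changes of low genes. The log2 ratio of a member is that of group means. The edgeR 4.0.16 quasi-likelihood test on recovered reads was an alternative. GENCODE release 44 (GRCh38) gave positions, exon lengths and canonical transcripts. Symbols were matched by Ensembl ID, and all listed genes had an entry.

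Members and lists were chosen with earlier results of these data known. Genes named are the members, SPINK2, the 2-5A list, RIGI, MAVS, the largest rise and fall of each other list among those that passed at a mean of 50 or more, the 5 genes nearest to OAS3 and the neighbours of the OAS cluster. Others were chosen after their values were seen. Of the marker lists the extremes at such a mean were ITGAM and PECAM1 (higher, log2 differences 0.38 and 1.70) and MPO and COL1A1 (lower, -0.40 and -0.60). The blast marker CD34, with a mean of only 19.6, had a larger negative difference than MPO, at -0.86. Some genes of the lists are not reported here and stay out of their counts. Proteins were not analysed here. Scripts ran under Python 3.11.15 with pandas 2.3.3, numpy 2.4.6 and matplotlib 3.10.9.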

Additional observations from a re-analysis of the deposited data

How the results depend on the processing

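The log2 ratio of every member with reads kept its sign under scaling by total recovered reads, scaling by TMM, centring, other pseudocounts and leaving out each library. Over all genes, 4520 passed as higher and 4733 as lower. Leaving out each library gave 4076 to 4400 higher and 4284 to 4694 lower, and edgeR gave 4552 and 4722. More genes were higher than lower under scaling by total reads (4847 and 4478) and by TMM (4682 and 4626). The lower count of the 2-5A list was 1 in place of 2 under scaling by total reads, by TMM and without the filter on low means, and 1 to 2 on leaving out libraries. For dsRNA-binding proteins the higher count was 2 in place of 1 under scaling by total reads and by TMM, and 1 to 3 on leaving out libraries, over which the lower count for partners of protein kinase R was 1 to 3. Among the genes named with a limma call, those of AKAP7, MAVS, PTPN11 and TBK1 ended under at least 1 setting, and none changed direction. TMM for counts, the further settings for lists and the shorter promoter spacing were chosen after seeing the data. Per kb of canonical transcript, levels in shNEG and shSPINK2 were 296 and 484 for OAS1, 27.9 and 63.4 for OAS2, 836 and 420 for OAS3, 25.6 and 67.0 for OASL, 352 and 367 for EIF2AK2, 227 and 379 for IFIH1, 62.9 and 173 for DHX58, and 2638 and 2833 for ADAR normalized reads per kb. No paired analysis was possible because the recovered libraries carry no replicate number. With 3 libraries a group, an exact permutation test of 1 gene cannot give a p below 0.1. Among genes with a mean over 30000 reads were resolved for 18.2%, which limits what can be said of the most abundant genes.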

Other observations

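The spread of the members within groups was taken as 1 value pooled over both groups. The coefficient of variation within groups was 18.1% for OAS2, 16.8% for OASL, 15.4% for DHX58, 10.6% for OAS1 and 7.06% for OAS3, where the median of genes within 1.5-fold of their mean was 7.59%, 8.71%, 6.57%, 4.96% and 3.59%. Each of these 5 genes varied more than at least 95.9% of such genes. IFIH1 with 3.70%, EIF2AK2 with 4.37% and ADAR with 2.12% did not stand out from genes of like mean in this way. The pooled value hides differences between the groups. OAS3 had 2.51% in shNEG and 9.67% in shSPINK2, and OAS1 had 6.19% and 13.7%. EIF2AK2 had 6.16% in shNEG and 0.542% in shSPINK2, and IFIH1 had 4.89% and 1.84%.

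Library B of shSPINK2 had the lowest normalized reads of its group for OAS1, OAS2, OAS3, OASL and DHX58, and library B of shNEG had the lowest of its group for 7 of the 8 members, OAS3 being the exception. Among all 12327 genes whose mean is at least 50, library B of shSPINK2 was lowest for 31.8% and library B of shNEG for 38.9%. Among 46 other interferon-stimulated genes at such a mean, these shares were 56.5% and 45.7%. The letters order libraries by size factor within a group and do not pair them.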
